A study of Mus musculus with 20 samples.

Results

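The mRNAs of 10 genes of the integrated stress response were followed in mouse pancreatic islets whose β-cells lacked one or both mitofusins, the outer membrane GTPases that fuse mitochondria. The genes were chosen by their role, with earlier results of these data known. They were the transcription factors *Atf4*, *Atf5*, *Atf3*, *Ddit3* and *Cebpb*, and the effectors *Trib3*, *Chac1*, *Ppp1r15a*, *Sesn2* and *Nupr1*. All 10 were found among the 28632 genes of the count table, each matched to exactly 1 Ensembl identifier. RNAseq libraries of whole islets came from 12-week-old C57BL/6N mice: 6 Ctrl, 4 β-Mfn1KO, 5 β-Mfn2KO and 5 β-Mfn1/2DKO. The knockout mice carried floxed alleles of *Mfn1*, of *Mfn2* or of both, together with Cre recombinase from the *Ins1* locus, which is active in β-cells and leaves other islet cells intact. The labels call Ctrl wild type, whereas the methods pool littermates with *Ins1*-Cre alone and with floxed alleles alone, and which of the 6 Ctrl libraries carry Cre is not given in the sources used here.

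The integrated stress response begins when kinases that sense amino acid shortage, double-stranded RNA, protein misfolding in the endoplasmic reticulum or mitochondrial faults phosphorylate the translation initiation factor eIF2. General protein synthesis then falls, while a few mRNAs with upstream open reading frames, *Atf4* and *Atf5* among them, are translated more, so the protein can rise without more mRNA. ATF4 pairs with C/EBP proteins and other basic leucine zipper (bZIP) factors on a composite DNA element and drives genes of amino acid supply, redox control, feedback and cell death. β-cells, which make and fold large amounts of proinsulin, are known for their sensitivity to a failure of this control.

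That composite element, the C/EBP-ATF response element, has the core TGATGNAA, and it was searched on both strands in the RefSeq promoter windows (GRCm38.p6, 250 bases before to 50 after each start site). The core was present in 4 of the 11 windows of the 10 genes, those of *Chac1*, *Nupr1*, *Atf3* and *Trib3*, against 3.97% of 32851 windows of all genes. These windows are shown because the genes share the element and yet, as described below, differed in their response. They are written 5′ to 3′ on the strand of the gene, with the matched core in capitals.

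Chac1 (chr2:119350992-119351291, plus strand): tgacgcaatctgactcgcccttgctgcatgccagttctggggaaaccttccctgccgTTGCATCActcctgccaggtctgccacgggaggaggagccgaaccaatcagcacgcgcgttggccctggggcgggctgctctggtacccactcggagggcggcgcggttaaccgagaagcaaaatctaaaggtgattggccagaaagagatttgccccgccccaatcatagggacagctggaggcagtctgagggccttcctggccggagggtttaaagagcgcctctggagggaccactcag
Nupr1 (chr7:126625421-126625720, minus strand): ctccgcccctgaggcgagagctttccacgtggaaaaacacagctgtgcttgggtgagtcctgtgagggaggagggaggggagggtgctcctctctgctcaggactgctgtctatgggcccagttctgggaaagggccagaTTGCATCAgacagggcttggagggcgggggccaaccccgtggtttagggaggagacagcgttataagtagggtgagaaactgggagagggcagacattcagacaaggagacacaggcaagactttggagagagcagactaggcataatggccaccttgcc
Atf3 (chr1:191183284-191183583, minus strand): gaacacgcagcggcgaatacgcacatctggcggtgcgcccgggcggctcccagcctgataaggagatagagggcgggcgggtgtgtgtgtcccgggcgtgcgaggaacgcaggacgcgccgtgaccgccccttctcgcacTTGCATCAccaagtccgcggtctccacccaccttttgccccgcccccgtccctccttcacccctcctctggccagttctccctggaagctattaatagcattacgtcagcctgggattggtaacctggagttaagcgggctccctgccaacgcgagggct
Trib3 (chr2:152344011-152344310, minus strand): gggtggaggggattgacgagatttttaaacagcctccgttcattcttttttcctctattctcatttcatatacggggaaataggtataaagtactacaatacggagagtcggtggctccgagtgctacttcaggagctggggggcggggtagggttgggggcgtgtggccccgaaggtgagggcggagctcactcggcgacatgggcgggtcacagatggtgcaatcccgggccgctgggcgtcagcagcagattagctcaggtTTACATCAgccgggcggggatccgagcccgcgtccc

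In each of these windows the core lies in the reverse orientation. It starts 193 bases before the start site in *Chac1*, 110 before it in *Nupr1* and *Atf3*, and at base 15 of the transcript in *Trib3*. *Chac1*, *Nupr1* and *Atf3* hold the same 8 letters (TTGCATCA) and *Trib3* differs in 1 of them (TTACATCA). The cAMP response element TGACGTCA, a site for ATF and CREB factors, was in 1 window, that of *Ppp1r15a*, where it starts 12 bases before the start site (1.79% of all windows hold it). The windows of *Atf4*, *Atf5*, *Ddit3*, *Cebpb* and *Sesn2* hold neither run of letters. The windows of *Atf3* and *Nupr1* begin at a start site inside the gene's full span.

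Libraries held 12400687 to 20329064 counts in Ctrl, 15745680 to 16685381 in β-Mfn1KO, 15110046 to 59533407 in β-Mfn2KO and 65533388 to 122947313 in β-Mfn1/2DKO, so depth went with genotype. Levels are given as normalized counts, for which the counts of each library were divided by its TMM-scaled size and set to the mean library. The targeted *Mfn1* stood at 621 to 1062 in the 9 libraries in which it was deleted and at 1518 to 1807 in the other 11, and *Mfn2* at 1474 to 2131 against 3089 to 4607. The sum of 8 β-cell markers was 2636841 to 3587032 in β-Mfn1/2DKO and 5876039 to 9598011 elsewhere, and 8 of 8 had an adjusted p under 0.05 in β-Mfn1/2DKO, all lower. The sum of 15 acinar markers ran from 12919 to 96755 in Ctrl. It was 847398 and 2173976 in β-Mfn1/2DKO replicates 4 and 5, 20478 to 35714 in the other 3, and 366226 in β-Mfn2KO replicate 4. Endothelial markers were higher in β-Mfn1/2DKO for 6 of 6 genes, with sums of 7259 to 11495 against 4943 to 7545 in Ctrl. Of the other lists, 2 of 6 ductal and 1 of 6 stellate and fibroblast markers were higher, and none of 7 macrophage and lymphocyte or 6 other endocrine markers had an adjusted p under 0.05. In 2 libraries the macrophage and lymphocyte sum stood apart, at 20989 in Ctrl replicate 6 and 29458 in β-Mfn2KO replicate 5 against 1270.3 to 5777 elsewhere, and the stellate and fibroblast sum was also highest there (13458 and 14445 against 742 to 3985). Leaving out Ctrl replicate 6 kept 6 of the 10 genes called in β-Mfn1/2DKO against Ctrl. In whole islets, fewer cells of a type and less RNA per cell cannot be told apart.

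No gene was near the limit of detection, and the lowest raw count in any library was 41, for *Atf3*. Per kilobase of exon, the Ctrl level was highest for *Atf5* (9422 normalized counts per kb), followed by *Atf4* (6922), *Cebpb* (2281) and *Nupr1* (2274). *Chac1* (1944), *Sesn2* (1881), *Ddit3* (1450), *Trib3* (1360) and *Ppp1r15a* (1032) came next, and *Atf3* was lowest (90.2). In β-Mfn1/2DKO *Nupr1* was first (20947), and *Ddit3* (5616) and *Trib3* (5233) stood above *Cebpb* (3928), *Sesn2* (3412) and *Chac1* (2089).

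In β-Mfn1/2DKO against Ctrl, 6 of the 10 genes rose: *Nupr1*, *Ddit3*, *Trib3*, *Atf3*, *Sesn2* and *Cebpb*. None fell. Their increase ran from 1.72-fold for *Cebpb* to 9.21-fold for *Nupr1*, while *Atf4*, *Atf5* and *Chac1* differed from Ctrl by at most 1.07-fold in the fit, which did not pass the test. To be called, a gene needed both a fold change above 1.5 and, in the quasi-likelihood test of edgeR, an adjusted p below 0.05. By that rule 5.21% of all genes were called, 3.24% as higher and 1.97% as lower. The 10 genes were chosen with earlier results known, so their share is not that of an independent list. The libraries of both groups did not overlap for these 6 genes. The share of all genes without such overlap was not counted, so this only describes the 6. The median log2 fold change of the 10 genes was 0.82, beside 0.03 for the 12274 genes whose mean reached 100 normalized counts.

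**Figure D1:**
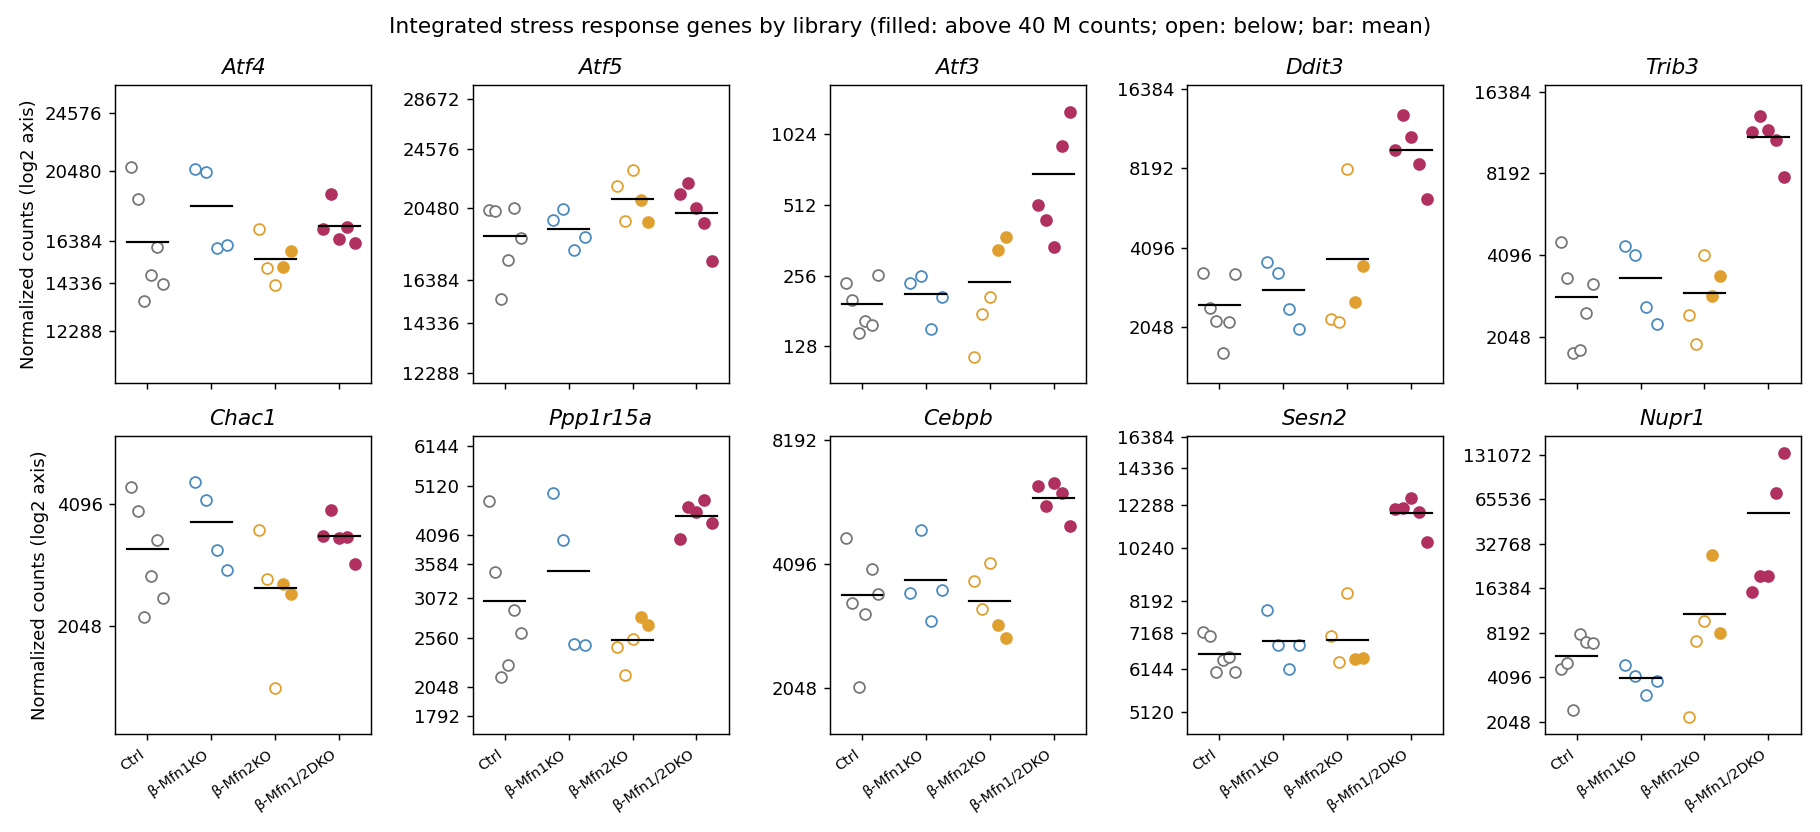
Normalized counts (log2 axis) of the 10 genes in each of 20 libraries, by genotype. Filled points are libraries above 40000000 counts, open points are below, and the bar is the group mean. All β-Mfn1/2DKO points of *Ddit3*, *Trib3*, *Sesn2*, *Cebpb*, *Atf3* and *Nupr1* lie above all Ctrl points, while those of *Atf4* and *Chac1* lie within the Ctrl range and those of *Atf5* overlap with it, 2 of them (21361 and 22130.2) above it.

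*Atf4* (ENSMUSG00000042406, GRCm38 chromosome 15, 80255184 to 80257541) encodes the central transcription factor of the response. It stood at a lowest, median and highest level of 13511, 15378 and 20695 in the 6 Ctrl libraries. It was at 20576, 20405, 16004 and 16153 in β-Mfn1KO, at 17028, 15035, 14246, 15066 and 15836 in β-Mfn2KO, and at 16988, 19026, 16467, 17107 and 16241 in β-Mfn1/2DKO. All groups overlap, and the 3 highest values are in Ctrl replicate 1 and β-Mfn1KO replicates 1 and 2. The log2 fold change in β-Mfn1/2DKO was 0.07 (SE 0.098, adjusted p = 0.67), with a 95% interval from −0.12 to 0.26.

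*Atf5* (ENSMUSG00000038539, chromosome 7, 44812256 to 44816658) encodes a related bZIP factor that serves the mitochondrial arm of the response. Its lowest, median and highest Ctrl levels were 15475, 19473 and 20468. The other libraries ran from 17968 to 20385 in β-Mfn1KO, from 19599.9 to 23046 in β-Mfn2KO and from 17371 to 22130.2 in β-Mfn1/2DKO, all overlapping with Ctrl. Its change in β-Mfn1/2DKO was 0.10 on the log2 scale (SE 0.077, adjusted p = 0.43, 95% interval −0.047 to 0.25). *Atf5* overlaps *Nup62* on the opposite strand over 571 bases (9.55% of its level), and whether strand was used in counting is not given in the sources used here, so its values are uncertain to that extent.

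*Ddit3* (ENSMUSG00000025408, chromosome 10, 127290774 to 127296288) encodes CHOP, the bZIP factor tied to cell death when the response lasts. Its Ctrl levels had a lowest of 1628, a median of 2290.4 and a highest of 3297. The β-Mfn1KO libraries stood at 3615, 3286, 2409 and 2009.7, and the β-Mfn2KO libraries at 2200.4, 2138, 8127, 2556 and 3503.5. The β-Mfn1/2DKO libraries stood at 9601, 13039.6, 10719, 8497 and 6243. The β-Mfn1/2DKO values exceed every Ctrl and β-Mfn1KO value, and β-Mfn2KO replicate 3 lies among them. On the log2 scale *Ddit3* was higher by 1.95 (SE 0.29, adjusted p = 4.2e-05). *Ddit3* overlaps *Mars* on the opposite strand over 68 bases. The level of *Mars* was 141% of that of *Ddit3*, and its log2 fold change was −0.24 (adjusted p = 0.032). The part of shared reads in the *Ddit3* values was not tested.

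*Atf3* (ENSMUSG00000026628, chromosome 1, 191170296 to 191218039) encodes a bZIP factor that is induced by many kinds of stress. It was the weakest of the 10 mRNAs, with a lowest, median and highest Ctrl level of 146, 183 and 258. The β-Mfn1KO libraries ran from 151 to 256, and the β-Mfn2KO libraries stood at 116, 176.5, 207, 329.8 and 374.5. In β-Mfn1/2DKO the values were 509.8, 442, 340.1, 910.0 and 1273.5. The 2 highest are the acinar-rich replicates 4 and 5, and within β-Mfn2KO the 2 highest are the 2 deep libraries. The increase was 1.83 on the log2 scale (SE 0.31, adjusted p = 0.00018).

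*Cebpb* (ENSMUSG00000056501, chromosome 2, 167688915 to 167690418) encodes a C/EBP partner of ATF4. Its lowest, median and highest Ctrl levels were 2054, 3377 and 4716. It stood at 2970.3 to 4938 in β-Mfn1KO and at 2706 to 4108 in β-Mfn2KO. The β-Mfn1/2DKO values of 6336.5, 5641, 6437, 6074 and 5050.3 lie above all others. *Cebpb* was higher by a log2 value of 0.78 (SE 0.15, adjusted p = 0.00085). *Tmem189* overlaps *Cebpb* on the opposite strand over 908 bases, with 21.5% of its level, so its values are uncertain to that extent.

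*Trib3* (ENSMUSG00000032715, chromosome 2, 152337422 to 152344032) encodes a pseudokinase that is induced by ATF4 and CHOP and restrains both ATF4 and Akt signalling. Its Ctrl levels had a lowest of 1799, a median of 2869 and a highest of 4591. They were 4449.5, 4094, 2652 and 2295 in β-Mfn1KO and 2477, 1941, 4119, 2899 and 3449 in β-Mfn2KO. In β-Mfn1/2DKO *Trib3* stood at 11620.1, 13334, 11855, 10871 and 7922, with no overlap with any other group. *Trib3* thus rose by a log2 value of 1.94 (SE 0.23, adjusted p = 2.9e-06).

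*Chac1* (ENSMUSG00000027313, chromosome 2, 119351229 to 119354381) encodes an enzyme that degrades glutathione and is a target of the ATF4, ATF3 and CHOP cascade. In contrast to *Trib3*, its β-Mfn1/2DKO values of 3429, 3973, 3378, 3397 and 2922 lie within the Ctrl range of 2158 to 4518 (median 3033). It was at 4656, 4196, 3161.5 and 2825 in β-Mfn1KO and at 3546, 2676, 1437.5, 2608 and 2457 in β-Mfn2KO. The lowest value belongs to β-Mfn2KO replicate 3, the library with the highest *Ddit3* of its group. Against Ctrl *Chac1* differed by 0.10 on the log2 scale (SE 0.19, adjusted p = 0.76, 95% interval −0.26 to 0.47). The ratio of *Trib3* to *Chac1* normalized counts within a library, chosen after both were seen, was 2.71 to 3.51 in β-Mfn1/2DKO, 0.672 to 1.34 in Ctrl and 0.813 to 0.976 in β-Mfn1KO. In β-Mfn2KO it was 0.698 to 2.87, with a median of 1.11.

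*Ppp1r15a* (ENSMUSG00000040435, chromosome 7, 45522916 to 45526268) encodes GADD34, which brings a phosphatase to eIF2 and closes the feedback loop. It stood at a lowest of 2145.5, a median of 2769 and a highest of 4786 in Ctrl, and at 4949, 4003, 2493 and 2478 in β-Mfn1KO. The β-Mfn2KO libraries held 2457, 2164, 2552, 2819 and 2716, and the β-Mfn1/2DKO libraries 4019.6, 4651.5, 4544, 4792 and 4315. The β-Mfn1/2DKO values are all above those of β-Mfn2KO and overlap with Ctrl and β-Mfn1KO through replicate 1 of each. The log2 fold change against Ctrl was 0.56 (SE 0.17), with an adjusted p of 0.031 that passed and a fold of 1.47 that did not. An adjusted p under 0.05 alone was reached by 16.5% of all genes.

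*Sesn2* (ENSMUSG00000028893, chromosome 4, 132492032 to 132510501) encodes sestrin 2, a leucine sensor that restrains mTORC1. Among the 6 genes that rose it had the smallest spread relative to its mean in Ctrl and in β-Mfn1/2DKO. Its lowest, median and highest Ctrl levels were 6063, 6426 and 7184. The β-Mfn1KO libraries ran from 6147 to 7880.2 and the β-Mfn2KO libraries from 6337 to 8474.5, whereas β-Mfn1/2DKO stood at 12079.5, 12113, 12654, 11938.5 and 10499. No β-Mfn1/2DKO value overlaps with another group. The difference from Ctrl was 0.86 on the log2 scale (SE 0.078, adjusted p = 9.1e-08).

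*Nupr1* (ENSMUSG00000030717, chromosome 7, 126623249 to 126630861) encodes a small chromatin-associated stress protein that was first found in the injured exocrine pancreas. Its lowest, median and highest Ctrl levels were 2462, 6056 and 7998, and β-Mfn1KO ran from 3122 to 4938. The β-Mfn2KO libraries stood at 2189, 7161, 9772, 27560.3 and 8193, and the β-Mfn1/2DKO libraries at 15379.9, 19778, 19879.7, 72494 and 135773. The 2 highest values are again β-Mfn1/2DKO replicates 4 and 5, and β-Mfn2KO replicate 4, the highest of its group, is the acinar-rich library of that genotype. *Nupr1* was higher by 3.20 on the log2 scale (SE 0.55, adjusted p = 0.00024).

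**Figure D2:**
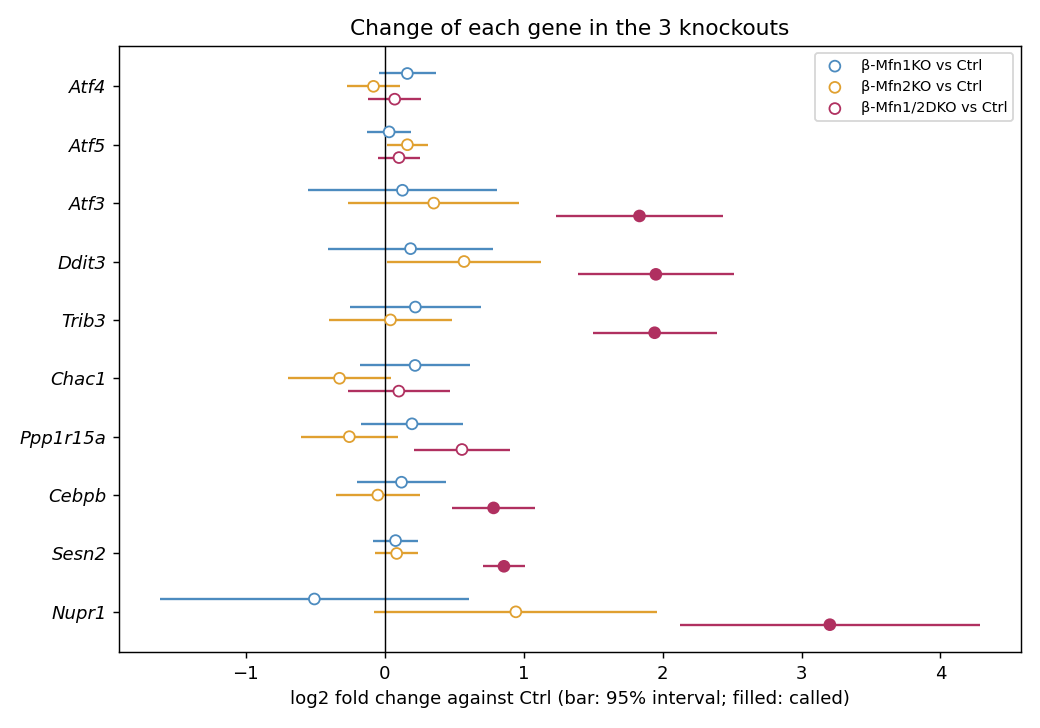
Log2 fold change against Ctrl of each gene in β-Mfn1KO, β-Mfn2KO and β-Mfn1/2DKO, with bars of the 95% interval and filled points for called genes. Filled points occur in β-Mfn1/2DKO, from 0.78 for *Cebpb* to 3.20 for *Nupr1*. The points of β-Mfn1KO and β-Mfn2KO are open for all 10 genes.

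Neither single deletion moved any of the 10 genes past the test. In β-Mfn2KO against Ctrl, 0 of 10 were called by edgeR and 0 by DESeq2, with 0.0524% of all genes called by edgeR. In the fit of edgeR over all genes, *Atf5* alone of the 10 had an unadjusted p under 0.05 (log2 fold change 0.16, adjusted p = 0.93). Of all 28632 genes 1208 had one. The largest differences in β-Mfn2KO were 0.94 for *Nupr1* (SE 0.52, adjusted p = 0.93) and 0.57 for *Ddit3* (SE 0.28, adjusted p = 0.93), and the 95% interval of *Nupr1* reached 1.96. In β-Mfn1KO against Ctrl, 0 of 10 were called by either tool, 0 had an unadjusted p under 0.05, and 0.0244% of all genes were called. The log2 fold changes ran from −0.51 for *Nupr1* (SE 0.57) to 0.22 for *Trib3* (SE 0.24). In each of these comparisons the 95% interval of 5 of the 10 genes reached past a 1.5-fold change.

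Compared with β-Mfn2KO, β-Mfn1/2DKO was higher in 7 of 10 genes (3.84% of all genes were called). They were the 6 above and *Ppp1r15a*, at 0.81 (SE 0.18, adjusted p = 0.0042). *Trib3* differed by 1.90 (SE 0.24), *Ddit3* by 1.38 (SE 0.30) and *Sesn2* by 0.77 (SE 0.082). The libraries did not overlap for 4 genes, *Trib3*, *Sesn2*, *Cebpb* and *Ppp1r15a*. Compared with β-Mfn1KO, 6 of 10 genes were higher in β-Mfn1/2DKO (6.71% of all genes were called), the same 6 as against Ctrl, and their libraries did not overlap. These comparisons share the β-Mfn1/2DKO libraries with the comparison against Ctrl. The share of all genes without overlap was not counted in these comparisons either.

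The difference between losing *Mfn1* in the absence and in the presence of *Mfn2* was tested as an interaction. It was called for 3 of 10 genes, against 2.74% of all genes. For *Trib3* the effect of losing *Mfn1* was larger by 1.68 on the log2 scale when *Mfn2* was absent (SE 0.34, adjusted p = 0.0042), and for *Sesn2* by 0.69 (SE 0.12, adjusted p = 0.0010). For *Nupr1* the value was 2.76 (SE 0.80, adjusted p = 0.043). That call was lost in 14 of the 20 fits that left out 1 library, with values between 2.04 and 3.45. *Ddit3* (1.19, adjusted p = 0.11), *Atf3* (1.35, adjusted p = 0.096) and *Cebpb* (0.71, adjusted p = 0.074) did not pass. Without β-Mfn2KO replicate 3, the value of *Ddit3* was 1.72 (adjusted p = 0.0013).

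The calls differed in how they held against depth and acinar transcripts. *Ddit3*, *Trib3*, *Sesn2* and *Cebpb* were called in β-Mfn1/2DKO against Ctrl under all 12 alternative settings and in all 20 fits that left out 1 library. *Sesn2* ran from 0.80 to 1.04 over the settings and *Trib3* from 1.78 to 2.11. With a term for libraries above 40000000 counts, which rests on the β-Mfn2KO libraries of both depths, 4 of 10 genes were called. *Nupr1* was then at 1.72 (adjusted p = 0.40) and *Atf3* at 0.76 (adjusted p = 0.53). The 2 deep β-Mfn2KO libraries, replicates 4 and 5, are both male. Replicate 4 is acinar-rich and replicate 5 has the highest macrophage and lymphocyte sum, so the term cannot tell depth apart from these traits. Without β-Mfn1/2DKO replicates 4 and 5, 6 of 10 genes were called against Ctrl, with *Nupr1* at 1.71 (adjusted p = 0.0086) and *Atf3* at 1.17 (adjusted p = 0.0032). Against β-Mfn2KO, *Nupr1* was then at 0.75 (adjusted p = 0.34) and *Atf3* at 0.81 (adjusted p = 0.052). With the acinar score as a covariate both were called against Ctrl, *Nupr1* at 2.05 (adjusted p = 7.1e-05) and *Atf3* at 1.38 (adjusted p = 0.00037), and the interaction of *Nupr1* was 1.26 (adjusted p = 0.16). In deep libraries only, β-Mfn1/2DKO against β-Mfn2KO gave 1.6 for *Nupr1* (adjusted p = 0.38) and 1.02 for *Atf3* (adjusted p = 0.26).

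**Figure D3:**
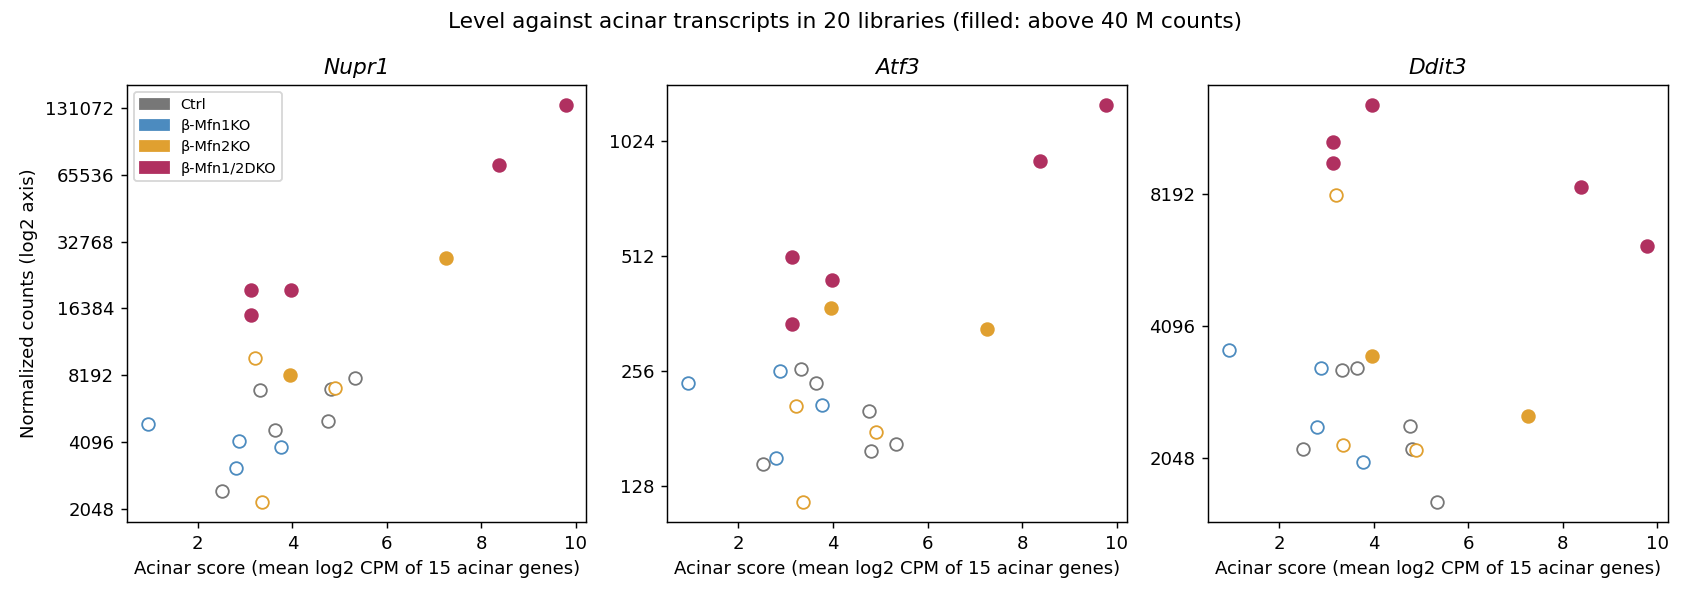
Normalized counts (log2 axis) of *Nupr1*, *Atf3* and *Ddit3* against the acinar score, the mean log2 of depth-scaled counts (CPM) of 15 acinar genes, in 20 libraries coloured by genotype and filled above 40000000 counts. The β-Mfn1/2DKO libraries of highest acinar score hold the most *Nupr1* (72494 and 135773) and *Atf3* (910.0 and 1273.5), and the least *Ddit3* of their genotype (8497 and 6243).

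The 10 genes also varied among libraries of the same genotype. To see which of them did so together, log2 CPM was expressed as the deviation from the genotype mean, and all 45 pairs were correlated over the 20 libraries (two-sided permutation tests with 100000 permutations within genotype, adjusted over the 45 pairs). Of the 45 pairs, 33 had a positive and 12 a negative Pearson's r, and 18 had an adjusted p under 0.05, all of them positive. With Spearman's rho 19 pairs did so. The closest pair was *Atf4* and *Chac1*, with r = 0.87 (permutation p = 1e-05, the smallest the permutations can give, adjusted 0.00022) and rho = 0.90 (permutation p = 3e-05, adjusted 0.00067). It was followed by *Atf4* and *Ppp1r15a*, with r = 0.87 (permutation p = 0.00063, adjusted 0.0047) and rho = 0.86 (permutation p = 0.00098, adjusted 0.0082). The third was *Ddit3* and *Trib3*, with r = 0.82 (permutation p = 1e-05, adjusted 0.00022) and rho = 0.86 (permutation p = 1e-05, adjusted 0.00045). Without the 2 libraries farthest from the median of the first gene these r were 0.84, 0.80 and 0.87. The pair nearest to 0 was *Trib3* and *Nupr1*, at r = −0.03 (permutation p = 0.91, adjusted 0.91).

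*Chac1* thus varied with *Atf4* from library to library, and neither passed the test across genotypes. With *Ddit3*, *Chac1* had r = −0.17 (permutation p = 0.56, adjusted 0.68) and rho = 0.12 (permutation p = 0.64, adjusted 0.72), and without the 2 libraries farthest in *Ddit3*, β-Mfn2KO replicate 3 and β-Mfn1/2DKO replicate 2, r was 0.24. *Atf3* and *Nupr1* varied together (r = 0.79, permutation p = 0.0024, adjusted 0.013, rho = 0.75 with permutation p = 0.0024 and adjusted 0.012) and with none of the other 8 at an adjusted p under 0.05. That r was 0.66 without the 2 farthest libraries and 0.67 over the 15 libraries other than β-Mfn1/2DKO (adjusted p = 0.10). With sex as well as genotype removed, *Atf3* with *Ppp1r15a* had r = 0.48 (adjusted permutation p = 0.047). Over the 15 libraries the highest r of *Atf3* with the other 8 was 0.58, with *Trib3* (adjusted permutation p = 0.073). Over those 15 libraries 7 of 45 pairs had an adjusted p under 0.05, in place of 18.

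**Figure D4:**
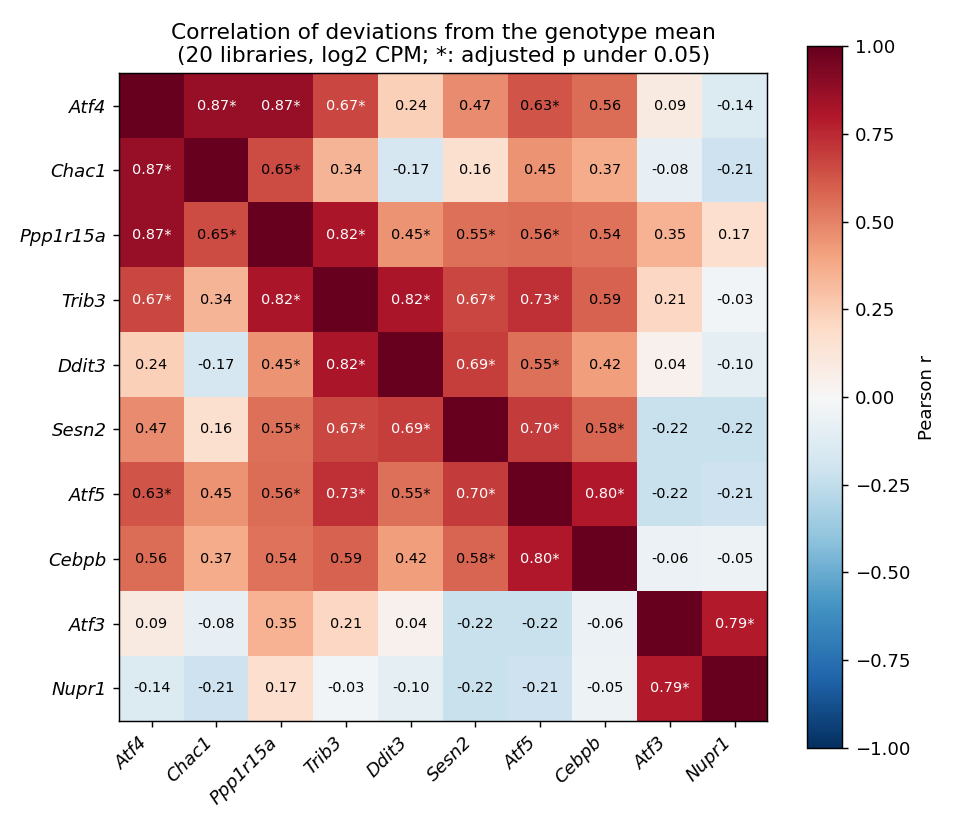
Pearson's r of log2 CPM deviations from the genotype mean for all pairs of the 10 genes over 20 libraries, from −1 (blue) to 1 (red), with an asterisk at an adjusted permutation p under 0.05. The red block spans *Atf4* to *Cebpb*, with r up to 0.87 and 1 negative pair, *Ddit3* with *Chac1* at −0.17, while *Atf3* and *Nupr1* pair with each other at 0.79.

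The same deviations were set against the acinar score, the score of 12 immediate early genes, which respond rapidly to many stimuli, and the total count, 30 relations in all. At an adjusted p under 0.05 stood *Nupr1* with the acinar score (r = 0.81, permutation p = 0.0013, adjusted 0.037, rho = 0.72 with permutation p = 0.0052 and adjusted 0.052, r = 0.67 without the 2 farthest libraries). *Atf3* with the immediate early score gave r = 0.72 (permutation p = 0.0030, adjusted 0.037, rho = 0.73 with permutation p = 0.0030 and adjusted 0.052, r = 0.60 without the 2 farthest). *Ppp1r15a* with that score gave r = 0.58 (permutation p = 0.0037, adjusted 0.037, rho = 0.54 with permutation p = 0.010 and adjusted 0.077, r = 0.66 without the 2 farthest). *Ddit3* ran the other way against the acinar score, with r = −0.53 (permutation p = 0.017, adjusted 0.12) and rho = −0.62 (permutation p = 0.0047, adjusted 0.052). No gene had an adjusted p under 0.05 with the total count, where r ran from −0.23 for *Cebpb* to 0.35 for *Atf3*.

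Around the 10 genes, 107 other genes of the pathway were read in 12 lists. In β-Mfn1/2DKO against Ctrl 22 of the 107 were called (20.6%), 14 higher and 8 lower, beside 5.21% of all 28632 genes. Many of those genes have few counts. After a filter for expressed genes (filterByExpr), 1370 of 15267 were called. The lists were chosen with earlier results of these data known. Among the 4 eIF2 kinases none was called by edgeR or DESeq2, and 2 had an unadjusted p under 0.05. Of all 28632 genes 7974 had an unadjusted p under 0.05 in this comparison, which is the background for such counts here and in the lists below. *Eif2ak1*, which encodes the kinase HRI that relays mitochondrial stress, had a mean of 2104 ± 64.5 in the 6 Ctrl libraries and of 2080.2 ± 46.6 in the 5 of β-Mfn1/2DKO (SD). It differed by −0.02 on the log2 scale (SE 0.041, adjusted p = 0.83). *Eif2ak2*, for the double-stranded RNA sensor PKR, was at −0.18 (adjusted p = 0.14). *Eif2ak3*, for PERK of the endoplasmic reticulum, was at −0.08 (adjusted p = 0.75). *Eif2ak4*, for the amino acid sensor GCN2, was at 0.22 (adjusted p = 0.014, below the fold threshold). Both *Eif2ak3* and *Eif2ak4* rested on β-Mfn1/2DKO replicate 5, in which *Eif2ak3* was 6634.6 against 3154 to 4291 in the other 4. Without it *Eif2ak3* was at −0.32 (adjusted p = 0.030) and *Eif2ak4* at 0.18 (adjusted p = 0.052). None of 8 eIF2 and eIF2B subunits was called by edgeR or DESeq2 (2 with an unadjusted p under 0.05). Of 9 relays and brakes of eIF2 phosphorylation, such as *Dele1*, *Oma1* and *Ppp1r15b*, edgeR called none and DESeq2 1, and 3 had an unadjusted p under 0.05.

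The targets of ATF4 were read in lists by function. In these and the lists below, a gene that rose or fell is one that was called. The secreted targets were called in 3 of 3 cases, all higher, with a median log2 fold change of 2.90. *Stc2*, for the glycoprotein stanniocalcin 2, stood at 1088, 1357, 1022, 1783 and 1389 in β-Mfn1/2DKO against 15.2 to 96.0 in Ctrl, an increase of 4.41 on the log2 scale (SE 0.33, adjusted p = 6.9e-09). *Fgf21*, for a hormone of metabolic stress, stood at 29.8, 20.7, 25.1, 149.7 and 231.8 against 6.23 to 17.5, highest in the acinar-rich replicates 4 and 5 (2.90, SE 0.60, adjusted p = 0.0014). Its Ctrl levels are near the floor. They rest on still fewer raw reads, since Ctrl libraries are smaller than the mean library to which counts were set. *Gdf15*, for a stress hormone that lowers food intake, was at 0.80 (SE 0.16, adjusted p = 0.0013). Without replicates 4 and 5, *Fgf21* was at 1.08 (adjusted p = 0.081) and the other 2 were called.

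Of 9 amino acid transporters 3 rose and none fell, with a median of 0.39. They were *Slc7a3*, for a carrier of cationic amino acids (1.52, SE 0.29, adjusted p = 0.00069), *Slc6a9*, for a glycine transporter (0.99, SE 0.15, adjusted p = 4.7e-05), and *Slc1a5*, for a glutamine carrier (0.74, SE 0.24, adjusted p = 0.036). *Slc1a5* stood at 298.6, 334.7, 271.7, 661.2 and 945.8 in β-Mfn1/2DKO against 252 to 330.0 in Ctrl, so the acinar-rich replicates 4 and 5 lay far above Ctrl and the other 3 in or next to its range. Without both it was at 0.03 (adjusted p = 0.94), without replicate 4 at 0.64 (adjusted p = 0.092), without replicate 5 at 0.38 (adjusted p = 0.20) and with the acinar score at 0.26 (adjusted p = 0.24). Its call was also lost without any one of Ctrl replicates 1, 3, 4, 5 and 6. Of 10 genes of amino acid synthesis 1 rose, none fell, and the median was −0.15. At an adjusted p under 0.05 alone, 1 was lower. The gene that rose was *Gpt2*, for the mitochondrial alanine aminotransferase, at 4751 ± 676 against 1294 ± 170 in Ctrl (SD, n = 5 and 6). On the log2 scale it was higher by 1.88 (SE 0.10, adjusted p = 5.1e-11). None of 12 tRNA synthetases was called by edgeR or DESeq2 (4 with an unadjusted p under 0.05, median −0.03). Of 10 targets of ATF4 and CHOP in growth control, redox and death 1 rose, *Tnfrsf10b*, for a death receptor (0.76, SE 0.20, adjusted p = 0.010). It stood at 182.9, 197.3, 158.8, 322.5 and 405.6 in β-Mfn1/2DKO against 119.5 to 177.7 in Ctrl, and was at 0.29 (adjusted p = 0.28) without replicates 4 and 5 and at 0.53 without replicate 5. Of 8 other bZIP factors 1 rose, *Cebpa*, for a C/EBP factor (0.80, SE 0.25, adjusted p = 0.027). Ctrl replicate 6 (554.1) lay within its β-Mfn1/2DKO range of 337.0 to 621.2. The call of *Cebpa* was lost in 7 of the 20 fits that left out 1 library, those without any one of Ctrl replicates 1 to 5 or β-Mfn1/2DKO replicates 4 and 5, where it was at 0.74 (adjusted p = 0.064) and 0.70 (adjusted p = 0.075). It was at 0.67 with the acinar score (adjusted p = 0.082).

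The targets of ATF6 and XBP1, the other arms of the unfolded protein response, which enlarge the folding capacity of the endoplasmic reticulum, were read as a separate list. Of 15 genes 7 fell, 1 rose, and the median was −0.56. At an adjusted p under 0.05 alone, 12 were lower and 1 was higher. *Sdf2l1*, a chaperone component, fell by 1.25 on the log2 scale (SE 0.21, adjusted p = 0.00023). *Manf*, a secreted neurotrophic factor, fell by 0.86 (SE 0.16, adjusted p = 0.00052), *Hyou1*, a chaperone of the Hsp70 family, by 0.82 (SE 0.16, adjusted p = 0.0010) and *Dnajb9*, a co-chaperone, by 0.77 (SE 0.16, adjusted p = 0.0012). The 1 that rose was *Edem1*, which helps to clear misfolded glycoproteins (0.67, adjusted p = 6.0e-06), named after its values were seen. With the term for depth 1 of the 15 was called, *Edem1*, which was higher (0.70, adjusted p = 0.016). With that term none of the 15 was lower at an adjusted p under 0.05, and *Sdf2l1* was at −0.88 (adjusted p = 0.26). Without β-Mfn1/2DKO replicates 4 and 5, 7 were called. At an adjusted p under 0.05 alone, 10 were then lower and 1 was higher. The β-cell markers were lower in the same libraries, and their part in this result was not tested.

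Of 8 mitochondrial chaperones and proteases 2 rose and none fell by the call. At an adjusted p under 0.05 alone, 4 were higher and 2 lower. *Lonp1*, for the matrix protease, was at 20856 ± 1785 against 9825 ± 1464 (1.09, SE 0.12, adjusted p = 1.1e-06), and *Dnaja3*, for a matrix co-chaperone, was at 0.66 (SE 0.078, adjusted p = 3.0e-06). Of 12 immediate early genes *Klf4* (0.69, adjusted p = 0.0086) and *Ier3* (0.65, adjusted p = 0.043) rose and *Fosb* fell by 0.82 (adjusted p = 0.044), and none was called without β-Mfn1/2DKO replicates 4 and 5. Leaving out 1 library lost the call of *Klf4* in 1 of 20 fits, without β-Mfn1/2DKO replicate 5, of *Ier3* in 7 (Ctrl replicates 3 to 6, β-Mfn1KO replicate 1 and β-Mfn1/2DKO replicates 4 and 5) and of *Fosb* in 11 (Ctrl replicates 1, 2, 3 and 5, β-Mfn1KO replicate 1, β-Mfn2KO replicates 3 and 4, and β-Mfn1/2DKO replicates 1, 3, 4 and 5).

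Of the 22 called pathway genes, *Stc2*, *Gpt2*, *Lonp1*, *Dnaja3* and *Edem1* were called under all 12 alternative settings and in all 20 fits without 1 library. The other 17 were not called with the depth term, which cannot tell depth apart from other traits of the deep β-Mfn2KO libraries. A lost call was not always a changed estimate. With that term *Creld2* went from −0.69 to −0.63. Others moved further, as *Hyou1* from −0.82 to −0.43, *Dnajb9* from −0.77 to −0.45 and *Klf4* from 0.69 to 0.35. *Cebpa* went from 0.80 to 0.10 and *Ier3* from 0.65 to −0.13. Only *Fosb* moved away from 0, from −0.82 to −1.41.

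**Figure D5:**
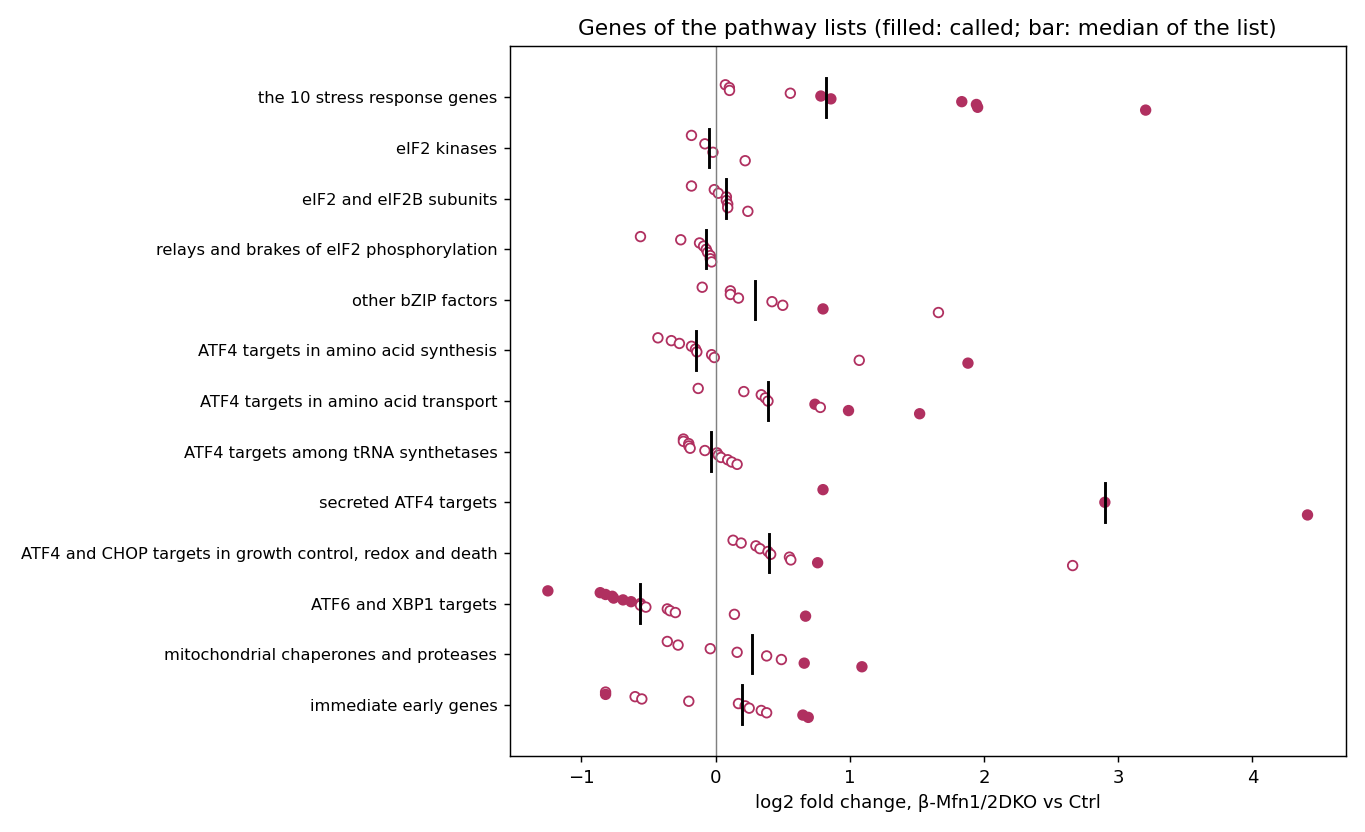
Log2 fold change in β-Mfn1/2DKO against Ctrl of the 10 stress response genes and of each gene of the 12 pathway lists, with filled points for called genes and a bar at the median of a list. The secreted targets lie to the right (median 2.90) and the ATF6 and XBP1 targets to the left (median −0.56), while the kinases and tRNA synthetases sit near 0.

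The genes most like the 10 over the 20 libraries were sought among 12264 other genes whose mean reached 100 normalized counts, by Pearson's r of log2 CPM with the mean z-score of the 10. That mean z-score was 0.81 to 1.26 in β-Mfn1/2DKO and −1.41 to 0.43 in Ctrl, so genotype enters into these r, which are given as a description. The highest were *Vmp1* (r = 0.967), *Adm2* (0.948), *Cebpg* (0.943), *Uri1* (0.935) and *Steap1* (0.928), followed by *Xpot* and *Got1* (0.927 each), *Eif5* (0.926), *Vdac3* (0.925) and *Pnrc2* (0.924). *Adm2*, for a peptide hormone, had a mean of 728 ± 69.3 in β-Mfn1/2DKO against 324 ± 160 in Ctrl (log2 fold change 1.15, adjusted p = 0.0031). *Cebpg*, for a C/EBP partner of ATF4, was at 0.50 (adjusted p = 0.00033), below the fold threshold. *Steap1*, for a metalloreductase, was at 1.83 (adjusted p = 0.00042).

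With genotype removed, the single closest gene to each member was *Mthfd2*, a mitochondrial folate enzyme, for *Chac1* (r = 0.973), *Hax1* for *Atf4* (0.953), *Steap1* for *Trib3* (0.952), *Adm2* for *Ppp1r15a* (0.944) and *Nrf1* for *Ddit3* (0.941). For *Nupr1* it was *Tspan1* (0.918), for *Atf3* *Tmem97* (0.907), for *Sesn2* the tRNA synthetase *Aars* (0.903), for *Atf5* *Gclm*, a subunit of the enzyme of glutathione synthesis (0.892), and for *Cebpb* *Lsm1* (0.827). Like *Chac1*, *Mthfd2* did not pass the test across genotypes (log2 fold change −0.14 in β-Mfn1/2DKO, adjusted p = 0.53).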

How the data were processed

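RNA was read in 20 islet libraries. Per the submitters' processing notes and the methods, the authors trimmed reads with cutadapt 2.3, checked them with FastQC 0.11.8, aligned them to GRCm38 with STAR 2.6.1b and estimated gene counts with RSEM 1.3.1. The deposited counts are whole numbers, not normalized, without genes at 0 in every sample. A second deposited table of depth-normalized signal was not used. All 20 count columns were used (0 left out). Groups, sex and replicate numbers came from the labels.

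Here 28632 genes were fitted with edgeR 4.0.16 (R 4.3.3): TMM, 1 quasi-likelihood fit over 20 libraries with 1 coefficient per genotype, no filter, Benjamini-Hochberg adjustment over all genes, and calls that needed a fold change above 1.5 as well as an adjusted p below 0.05. SE is the absolute log2 fold change over the root of F. The 95% intervals add and subtract the normal quantile times SE, so they are slightly narrower than the F test would give. *Ddit3* in β-Mfn2KO against Ctrl had an interval from 0.017 to 1.13 and an unadjusted p of 0.056 in the F test. Identifiers were matched to GENCODE M21 on GRCm38 (53 without a symbol). Log2 CPM used a prior count of 2. No stretch of 75 bases of 9 members occurs in another gene's transcripts, and 1.81% of those of *Ddit3* do, in a second annotated *Ddit3* locus. The fit was tested on simulated data.

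The members and gene lists were chosen with earlier results of these data known. All members were named in every contrast. From each list the text names up to 4 called genes of largest change in β-Mfn1/2DKO and all eIF2 kinases, and for likeness the 10 closest genes and the closest to each member. The mean z-score used members whose mean reached 10 normalized counts, as it did for all 10. Of 45 pairs the 3 of largest r and the one nearest to 0 are named, and *Chac1* with *Ddit3* and *Atf3* with *Nupr1* were added after their values were seen. Alternatives were DESeq2 1.42.0, its size factors, total-count scaling, filterByExpr, only the groups compared, sex, replicate number, acinar score, immediate early score or depth class as a covariate, counts drawn down to 12400687 per library, and libraries left out. The study gives the group sizes as mice, so p-values measure the spread between mice. For well-counted genes, precision is set mainly by that spread and the group sizes rather than by depth, which was 12400687 to 122947313 counts per library. For genes of low counts, such as *Atf3* with 47 to 95 raw counts in the Ctrl libraries, depth limits precision as well. Python 3.11.15, SciPy 1.17.1 and Matplotlib 3.10.9 were used for permutations and figures.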

Additional observations from a re-analysis of the deposited data

Results flagged for a closer look

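*Ddit3* in β-Mfn2KO replicate 3 stood at 8127 normalized counts against 3503.5 in the next library of its group, a gap of 0.772 of the whole range of the group. It was the only one of 40 combinations of gene and genotype with a library so far from the others, and about 1 in 20 is set apart by chance. In the same library *Trib3* (4119), *Sesn2* (8474.5), *Atf5* (23046) and *Cebpb* (4108) were also the highest of the group. *Chac1* (1437.5) and *Atf4* (14246) were the lowest of the group there, as was the acinar score of 3.21.

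The effect of losing *Mfn1* differed between islets with and without *Mfn2*, by the interaction test, for *Trib3* (1.68 on the log2 scale), *Sesn2* (0.69) and *Nupr1* (2.76). Without β-Mfn1/2DKO replicates 4 and 5 the value of *Nupr1* was 1.26 (adjusted p = 0.31).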

How the results depend on the processing

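Of 12 alternatives and 20 fits without 1 library, all gave 6 or 7 called genes in β-Mfn1/2DKO against Ctrl except the depth term, which gave 4. Against β-Mfn2KO the depth term gave 4 in place of 7, among all pathway genes 7 in place of 22, and in the interaction DESeq2 gave 5 in place of 3. Over the 15 libraries without β-Mfn1/2DKO, 7 pairs correlated in place of 18, with fewer samples. In fits without 1 library the counts were 6 to 7 against Ctrl, 7 against β-Mfn2KO, 5 to 6 against β-Mfn1KO and 2 to 4 in the interaction, and 17 to 24 pathway genes. Over all genes the depth term called 481 in place of 1491, and leaving out β-Mfn1/2DKO replicates 4 and 5 called 957. Total-count scaling moved the median of the genes whose mean reached 100 normalized counts from 0.03 to 0.17, gave 79.6% of calls as higher in place of 62.2%, and called *Ppp1r15a*, which moved from 0.56 to 0.70. The causes were not tested.

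Same-numbered libraries did not pair by the check: 21 of 27 pairs had r over 0.1, with a mean of 0.25, against 0.17 for other numbers of the same sex, and 10 of 20 libraries correlated best with their own number. With the replicate block 6, 7 and 6 genes were called against Ctrl, β-Mfn2KO and β-Mfn1KO, and 2 in the interaction, without *Nupr1* (2.06, adjusted p = 0.054).

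Signs turned only among values that were not called. In β-Mfn1/2DKO *Chac1* was −0.022 with counts drawn down. Against β-Mfn1KO it was 0.051 with total-count scaling, 0.024 with sex and −0.23 to 0.011 without 1 library, and *Atf4* was 0.075 with total-count scaling and *Atf5* −0.016 with counts drawn down. Against β-Mfn2KO *Atf5* was 0.052 with total-count scaling, 0.037 without β-Mfn1/2DKO replicates 4 and 5 and 0.039 in deep libraries only. In β-Mfn2KO the depth term gave −0.22 for *Atf3*, −0.025 for *Trib3* and 0.096 for *Cebpb*, and fits without 1 library −0.095 to 0.22 for *Trib3* and −0.16 to 0.063 for *Cebpb*. In β-Mfn1KO the acinar score gave −0.0033 for *Atf5*, −0.051 for *Ddit3* and 0.24 for *Nupr1*, and fits without 1 library −0.017 to 0.063 for *Atf5*, −0.021 to 0.37 for *Ppp1r15a* and −0.043 to 0.23 for *Cebpb*. In the interaction *Atf4* was 0.12 with total-count scaling, 0.029 with sex and with the replicate block, 0.023 with the acinar score, 0.037 without β-Mfn1/2DKO replicates 4 and 5, and −0.090 to 0.051 without 1 library. *Atf5* was 0.042 and 0.0070 with total-count scaling and without those replicates.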

Other observations

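*Nupr1*, *Chac1*, *Atf4* and *Atf3* had an unadjusted p under 0.05 between the sexes, and none passed after adjustment. In the fit with sex as a covariate, *Nupr1* was higher in males by 1.29 on the log2 scale (SE 0.34, unadjusted p = 0.0011, adjusted p = 0.17), with means of 7365 in 3 male and 4068 in 3 female Ctrl libraries. The male means were also higher in β-Mfn2KO (15175 against 4675) and β-Mfn1/2DKO (76049 against 17579), where the acinar-rich libraries are all male, and not in β-Mfn1KO (3892 against 4071). β-Mfn2KO and β-Mfn1/2DKO each have 3 male and 2 female libraries, and β-Mfn1KO has 1 male and 3 female. A male mean of β-Mfn1KO, here and below, is thus that of 1 library. *Chac1* was lower in males by a log2 value of −0.37 (unadjusted p = 0.0066, adjusted p = 0.29), with lower male means in all 4 genotypes, and *Atf4* by −0.17 (unadjusted p = 0.021, adjusted p = 0.36), likewise in all 4. *Atf3* was higher in males by 0.52 (unadjusted p = 0.029, adjusted p = 0.41), with means of 193.5 in male and 195.1 in female Ctrl libraries and of 841.2 and 475.9 in β-Mfn1/2DKO. Of 28632 genes 16 were called for sex, none of them among the 10.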
